A study of Homo sapiens with 12 samples.

Results

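The clustered histone genes are those whose symbols begin with HIST1H, HIST2H, HIST3H or HIST4H. By this rule 87 of the 58302 gene identifiers in each library were members, under 86 symbols, since HIST1H3D stands for a pair of identifiers. They comprise 7 genes of the linker histone H1, 22 of H2A, 25 of H2B, 18 of H3 and 15 of H4. The HIST1 cluster holds 66 of them, HIST2 16, HIST3 4 and HIST4 1, and GENCODE release 29 lists 72 as protein-coding, 14 as pseudogenes and 1 (HIST2H2BC) under no entry. The rule used names alone and no measured value.

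RNA was sequenced from 769-P and ACHN cells, both described as clear cell renal cell carcinoma (ccRCC) cell lines, 48 h after transfection. In each line si-NUF2, a mixture of siRNAs against the kinetochore gene *NUF2*, was compared with the negative control si-NC, giving 4 groups of 3 replicates (12 libraries). Both lines are single lines carrying a transient knockdown, and neither carries any other treatment. The deposited values are FPKM, the fragments per kilobase of exon scaled to sequencing depth, which was 28768675 to 38542660 fragments per library. *NUF2* itself was in 769-P cells at 4.17, 3.86 and 3.01 FPKM (si-NUF2) against 19.4, 17.8 and 17.8 FPKM (si-NC), a log2 fold change of −2.29 (adjusted p = 0.00129, limma with Benjamini-Hochberg adjustment). In ACHN cells the values were 2.16, 5.14 and 4.25 against 11.6, 15.01 and 14.8 FPKM, a log2 fold change of −1.87 (adjusted p = 0.224 from limma, 0.0122 with the replicate number as a block). The knockdown libraries lay below the controls in both lines. Renal epithelial markers summed to between 264 and 533 FPKM per library, and 8 markers of blood, endothelial and stromal cells to between 0.322 and 4.003 FPKM, most of it *COL1A1* in ACHN cells.

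Nucleosomes are built from H2A, H2B, H3 and H4 and sealed by H1, and dividing cells must double their histones while DNA is replicated. The clustered genes provide this supply: they are short, mostly without introns, and transcribed in S phase under the coactivator NPAT. Their mRNAs characteristically end not in a poly(A) tail but in a conserved stem-loop bound by SLBP, and they are degraded when replication stops. Some members can also give a longer, polyadenylated mRNA by reading past the stem-loop, and such forms are known from differentiated and non-dividing cells.

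The stem-loop is shown first, because the 3′ end of the mRNA bears on which histone transcripts a library can hold. A stem of 6 bases around a loop of 4 was found in 49 of the 120 GENCODE transcripts of the members, and in 33 of the 86 members with an annotation, in 5 versions. The 4 below are DNA-sense sequences of GRCh38 with the stem-loop in capitals, from genes that are described in the results.
HIST1H2AC (chr6:26124662-26124691, forward strand): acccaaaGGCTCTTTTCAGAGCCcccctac
HIST1H2BD (chr6:26158580-26158609, forward strand): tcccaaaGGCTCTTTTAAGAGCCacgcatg
HIST1H4I (chr6:27139647-27139676, forward strand): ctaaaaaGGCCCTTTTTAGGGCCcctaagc
HIST4H4 (chr12:14770717-14770746, reverse strand): tccaaaaGGCCCTTTTCAGGGCCcccaaac

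Each of these lies in an exon just downstream of a stop codon. In HIST1H2AC the annotated transcript runs on for 1128 bases past the stem-loop and in HIST4H4 for up to 1510 bases, while in HIST1H2BD the form that carries the stem-loop ends 39 bases after it and a second form without the stem-loop runs 384 bases past its stop codon. Of the 72 protein-coding members, 25 have a model that runs more than 50 bases past the stem-loop, 6 end at it and 34 are annotated as the coding sequence alone. HIST1H2BD, with both kinds of end, was kept apart, and in the remaining 6 no perfectly paired stem-loop was matched. Of these, HIST1H1E, HIST1H4C and HIST1H1T end 51 to 57 bases past the stop codon, so an imperfect stem-loop may have been missed. HIST1H3J has a model of coding sequence alone and another without a stop codon. HIST1H2BJ and HIST1H2AG have models that run up to 569 and 1827 bases past the stop codon.

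The promoters are shown for HIST1H2BK and HIST1H2BD, 2 H2B genes whose differences in 769-P cells have opposite signs, and for HIST2H2AC, which shares its promoter with HIST2H2BE. Sequences are from RefSeq (GRCh38.p14), 5′ to 3′ on the strand of the gene, from 250 bases before to 50 bases after the transcription start. Capitals mark the TATA box (TATAAA), the CCAAT box and the octamer (ATTTGCAT) on either strand, with overlapping matches joined.
HIST1H2BK (chr6:27146809-27147108, reverse strand): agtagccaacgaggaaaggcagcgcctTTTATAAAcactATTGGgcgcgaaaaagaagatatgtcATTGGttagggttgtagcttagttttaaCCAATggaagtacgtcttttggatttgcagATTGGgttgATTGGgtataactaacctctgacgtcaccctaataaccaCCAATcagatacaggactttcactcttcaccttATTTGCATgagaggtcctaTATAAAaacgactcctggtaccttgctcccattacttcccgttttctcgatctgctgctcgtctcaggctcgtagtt
HIST1H2BD (chr6:26157871-26158170, forward strand): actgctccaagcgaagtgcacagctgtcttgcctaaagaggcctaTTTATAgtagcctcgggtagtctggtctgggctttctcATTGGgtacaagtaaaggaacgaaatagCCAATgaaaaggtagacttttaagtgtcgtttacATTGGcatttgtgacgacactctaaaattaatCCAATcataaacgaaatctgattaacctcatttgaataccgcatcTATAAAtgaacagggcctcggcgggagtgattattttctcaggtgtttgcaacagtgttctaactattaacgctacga
HIST2H2AC (chr1:149886668-149886967, forward strand): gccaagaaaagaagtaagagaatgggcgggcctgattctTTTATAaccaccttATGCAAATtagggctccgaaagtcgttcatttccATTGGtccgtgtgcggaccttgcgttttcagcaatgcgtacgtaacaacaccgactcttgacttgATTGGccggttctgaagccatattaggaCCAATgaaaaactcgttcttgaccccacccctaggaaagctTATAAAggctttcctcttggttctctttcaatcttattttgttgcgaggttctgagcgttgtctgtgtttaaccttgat

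TATAAA was present in the promoters of 65.7% of the 67 members matched in RefSeq, against 11.95% of all 27305 promoters of the same length. CCAAT was present in 85.1% against 35.7%, and ATTTGCAT in 40.3% against 1.80%. The octamer, known from H2B promoters, was present in 77.8% of H2B and 68.8% of H2A promoters and in 0 of the H1 and H4 promoters. HIST1H2BK carries the octamer and HIST1H2BD does not. These are matches of letters and describe the windows only.

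The members were low in these libraries. Of the 87, 76 were above 0 somewhere and 25 in all 12 libraries, while 8 reached a mean of 1 FPKM and 11 a mean of 0.5 FPKM over the 12 libraries. The members at 0 in every library of their line were 28 for 769-P and 15 for ACHN cells. Their summed level was between 24.5 and 67.1 FPKM, or 0.00793% to 0.0245% of all FPKM in a library, from 640 to 2317 reads. HIST1H2BK (an H2B gene), HIST1H1C (an H1 gene) and HIST1H2AC (an H2A gene) together held between 38.3% and 55.3% of it. No H3 gene reached a mean of 0.5 FPKM, and HIST1H4I was the one H4 gene that did. HIST1H3B, which encodes H3.1, was between 0.126 and 0.553 FPKM over the 12 libraries.

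Among the 25 genes whose model runs past the stem-loop, 5 had a mean of at least 0.5 FPKM, against 3 of the 34 with coding sequence alone. The counts were 0 of the 6 that end at the stem-loop and 1 of the 6 without a matched one. HIST1H2BD had a mean of 2.54 FPKM. The median of the mean level was 0.213 FPKM where the model runs past the stem-loop and 0.0672 FPKM with coding sequence alone. FPKM divides by the length of the model, so a level from a coding sequence of 381 bases (HIST1H2BK) leaves out any reads beyond it. The 8 members listed from general knowledge as having a polyadenylated form held between 48.2% and 62.7% of the member total in 769-P and between 55.3% and 66.9% in ACHN cells.

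How the RNA was selected before sequencing is not given in the sources used here. Of 20 small or structural RNAs that carry no poly(A) tail, 11 were at 0 in all 12 libraries, and the filter left 1 of them for 769-P and 2 for ACHN cells. The one tested in both lines was RN7SL2, an RNA of the signal recognition particle, at 676 to 5593 FPKM. RN7SL2 was lower with si-NUF2 in all 3 same-numbered pairs of both lines, with log2 differences of −0.46, −0.63 and −0.86 (769-P) and of −1.01, −0.55 and −0.25 (ACHN). Its part in the results on histone genes was not tested.

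The summed level of the members did not separate the siRNAs in either line. For 769-P it came to 24.5, 35.8 and 32.4 FPKM under si-NUF2 (mean 30.9 ± 5.77, SD, n = 3) and to 30.3, 37.9 and 32.3 FPKM under si-NC (33.5 ± 3.93). For ACHN it came to 39.8, 66.1 and 54.0 FPKM under si-NUF2 (53.3 ± 13.2) and to 36.8, 67.1 and 53.5 FPKM under si-NC (52.4 ± 15.1). The groups overlapped in both lines, and replicate 2 was the highest library of every group. In bulk RNA, fewer cells in S phase and less histone mRNA per cell cannot be told apart.

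After scaling within each line, the log2 ratio of the mean totals was −0.11 in 769-P and 0.04 in ACHN cells, against a pooled SD of the log2 total of 0.22 and 0.40 within groups (n = 3 each), with no test of the sum. By same-numbered pair the log2 differences were −0.30, −0.07 and 0.02 for 769-P and 0.14, −0.01 and 0.03 for ACHN. One gene weighed on the sign in 769-P cells: without HIST1H2BK the log2 ratio was 0.13 there and 0.21 in ACHN cells. The mean log2 level of the members tested was 0.27 higher with si-NUF2 in 769-P and 0.08 higher in ACHN cells. These means cover only members that passed the filter described below, so they follow in part from it.

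**Figure D1:**
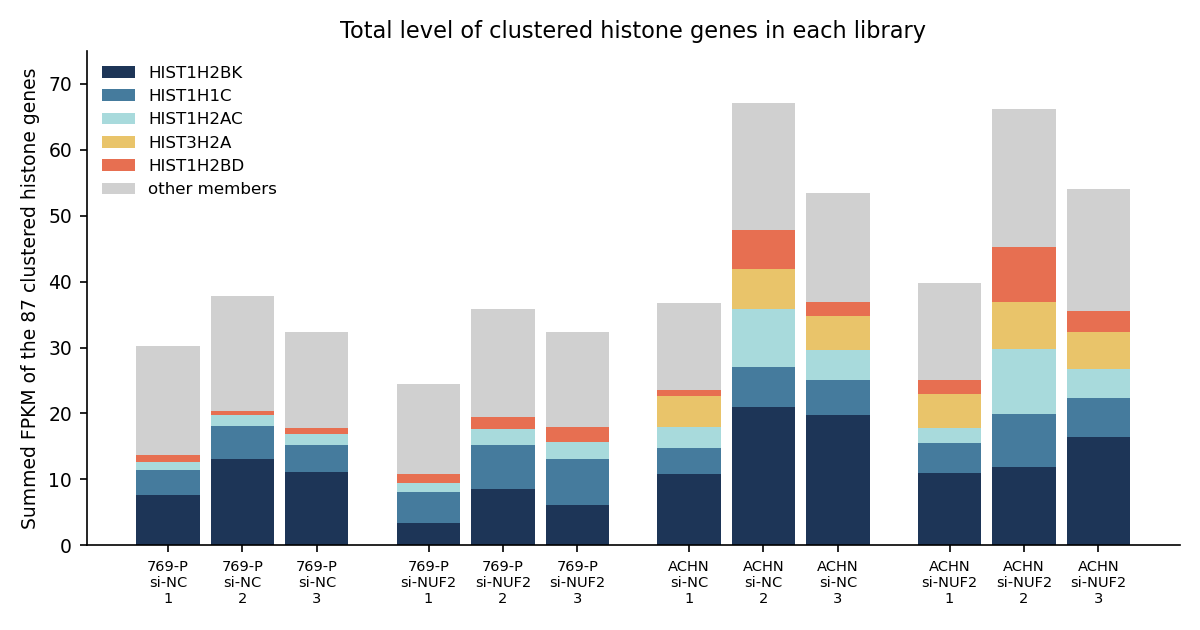
Summed FPKM of the 87 clustered histone genes in each of the 12 libraries, with the 5 members of highest mean level in colour and all others in grey. The totals of si-NUF2 and si-NC overlap in each line, the HIST1H2BK share is smaller with si-NUF2 in 769-P cells, and HIST3H2A is present in ACHN libraries alone.

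By class, the H1 total was higher with si-NUF2 in all 3 pairs of both lines. It was 5.24, 6.88 and 7.64 FPKM against 4.18, 5.69 and 4.85 FPKM in 769-P cells, and 5.23, 8.73 and 6.69 against 4.48, 6.74 and 5.62 FPKM in ACHN cells. Most of this is HIST1H1C. The H2B total was lower in all 3 pairs of 769-P cells (8.87, 14.95 and 13.3 against 12.3, 17.8 and 14.8 FPKM), and HIST1H2BK is its largest single part. The other H2B genes tested there did not share this fall. HIST1H2BC, HIST1H2BD, HIST1H2BJ, HIST1H2BN and HIST2H2BC had log2 fold changes of 0.44 to 1.04. The filter described below bears on all of these but HIST1H2BD.

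Single genes were tested where 3 or more of a line's 6 libraries reached a scaled FPKM of 0.5. This left 10 members for 769-P and 15 for ACHN cells, 16 in all and 9 in both, and the others are described by level only. HIST1H2BJ in 769-P cells passed through its si-NUF2 libraries alone, so its difference there follows in part from the filter. HIST2H2BC and HIST1H2BN reached this level there in 3 si-NUF2 libraries and 1 si-NC library, and HIST1H2BC in 3 and 2. Their si-NUF2 libraries would have been enough, so the filter bears on their differences too.

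In 769-P cells *HIST1H2BD* was upregulated with si-NUF2, and *HIST1H2BK*, the highest member, passed the test downward once replicates were paired. HIST1H2BD was the 1 of 10 members called by limma with Benjamini-Hochberg adjustment, while 5.26% of all 14155 genes tested were called up and 4.71% down. With the replicate number as a block, 4 members were called up and 3 down, where the background was 13.6% up and 13.9% down. All 10 members differed in the same direction in every same-numbered pair: 7 were higher in 3 of 3 pairs (30.9% of all genes tested) and 3 were lower (32.1%). The median log2 fold change was 0.45 over the 10 members and −0.01 over all genes tested. Without HIST1H2BJ, 9 members remain, with a median of 0.45. Of these, 3 were called up and 3 down with the block, and 6 were higher in 3 of 3 pairs. HIST2H2BC, HIST1H2BN and HIST1H2BC are still among the 9, so these values too follow in part from the filter.

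*HIST1H2BD* (ENSG00000158373, chromosome 6 of GRCh38, 26158146 to 26171349, forward strand) encodes an H2B. Its libraries held 1.35, 1.80 and 2.24 FPKM (si-NUF2) and 1.01, 0.644 and 0.815 FPKM (si-NC), from 18 to 60 reads. Every si-NUF2 library lay above every si-NC library. The log2 fold change was 1.04 (standard error 0.230, adjusted p = 0.0364 from limma, and 0.0303 with the replicate block). Leaving out si-NUF2 replicate 2 or 3 or si-NC replicate 2 or 3 ended the call, with adjusted p-values from limma of 0.0933 to 0.113 and log2 fold changes of 0.87 to 1.04. An antisense gene, AL353759.1, overlaps an intron of HIST1H2BD.

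*HIST1H2BK* (ENSG00000197903, chromosome 6, 27146418 to 27146798, reverse strand), another H2B gene and the highest member, went the other way. Its libraries held 3.43, 8.58 and 6.06 FPKM (si-NUF2) and 7.66, 13.1 and 11.1 FPKM (si-NC), from 41 to 160 reads. The groups overlapped, but each si-NUF2 library was below the si-NC library of its number. The log2 fold change was −0.86 (standard error 0.332, adjusted p = 0.151 from limma). With the replicate block the standard error was 0.108 and the adjusted p 0.00871 from limma, and the call held with any 1 library left out of that fit (adjusted p = 0.00700 to 0.0255 from limma).

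*HIST1H4I* (ENSG00000276180, chromosome 6, 27138588 to 27139881, forward strand), an H4 gene, lies inside the longer span that RefSeq gives HIST1H2BK, on the other strand (27138293 to 27146858). Its level was 0.788, 1.61 and 1.16 FPKM with si-NUF2 against 1.21, 2.00 and 2.20 FPKM with si-NC, and its log2 fold change was −0.56 (standard error 0.295, adjusted p = 0.267 from limma, 0.0400 with the block). With 1 library left out of the fit with the block, the call held in 1 of 6 fits (adjusted p = 0.0442 to 0.110 from limma). Whether reads were counted by strand is not given in the sources used here, so reads of the pair cannot be told apart where they overlap.

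*HIST1H1C* (ENSG00000187837, chromosome 6, 26055787 to 26056428, reverse strand) encodes the linker histone H1.2. It measured 4.62, 6.61 and 7.04 FPKM (si-NUF2) and 3.75, 5.05 and 4.18 FPKM (si-NC). Its groups overlapped, the log2 fold change was 0.48 (standard error 0.177, adjusted p = 0.136 from limma), and with the block the adjusted p was 0.0275 from limma. Without si-NC replicate 2 the fit with the block no longer called it (adjusted p = 0.0753 from limma).

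The other members called with the block in 769-P cells were lower or less deeply read. HIST1H2BJ was at 0.671, 0.659 and 0.992 FPKM against 0.286, 0.427 and 0.390 FPKM (log2 fold change 0.90, adjusted p = 0.0742 from limma, 0.0472 with the block). HIST2H2BC was at 0.934, 1.14 and 0.729 against 0.468, 0.806 and 0.319 FPKM (0.77, adjusted p = 0.175 from limma, 0.0420 with the block). With 1 library left out, no fit with the block called HIST1H2BJ (adjusted p = 0.0827 to 0.121 from limma in the 3 fits that tested it) or HIST2H2BC (0.0822 to 0.143 in 6 fits). HIST1H2AC, at 1.36, 2.42 and 2.65 against 1.22, 1.61 and 1.67 FPKM, was not called in either fit (0.46, adjusted p = 0.293 and 0.0544 from limma).

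A further pair of H2B genes tested in 769-P cells was not called in either fit. HIST1H2BC, which begins 219 bases from HIST1H2AC on the other strand, was at 0.650, 0.750 and 0.896 against 0.489, 0.598 and 0.518 FPKM, with groups that did not overlap (log2 fold change 0.45, adjusted p = 0.216 from limma, 0.146 with the block). HIST1H2BN was at 0.535, 0.590 and 0.766 against 0.341, 0.569 and 0.428 FPKM (0.44, adjusted p = 0.334 from limma), and its model shares exon sequence with HIST1H2AK and HIST1H2AL. HIST1H2AG, the divergent partner of HIST1H2BJ, lay below the filter at 0.382, 0.541 and 0.592 against 0.257, 0.249 and 0.329 FPKM, again without overlap.

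*HIST2H2AC* (ENSG00000184260, chromosome 1, 149886975 to 149887364, forward strand) and *HIST2H2BE* (ENSG00000184678, chromosome 1, 149884459 to 149886652, reverse strand) begin 323 bases apart and point away from each other, across the promoter printed above. HIST2H2AC was at 2.94, 4.19 and 2.25 FPKM with knockdown and at 4.44, 5.36 and 2.69 FPKM without it in 769-P cells (log2 fold change −0.38, adjusted p = 0.458 from limma, 0.0317 with the block). With 1 library left out of the fit with the block, it was called in 2 of 6 fits, those without replicate 3 of either siRNA (adjusted p = 0.0285 to 0.111 from limma over the 6). HIST2H2BE was at 0.378, 0.396 and 0.430 FPKM against 0.170, 0.270 and 0.211 FPKM, with the si-NUF2 libraries above all the controls, but below the filter and so without a test. The H2A gene of the pair was thus lower and the H2B gene higher in all 3 pairs.

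**Figure D2:**
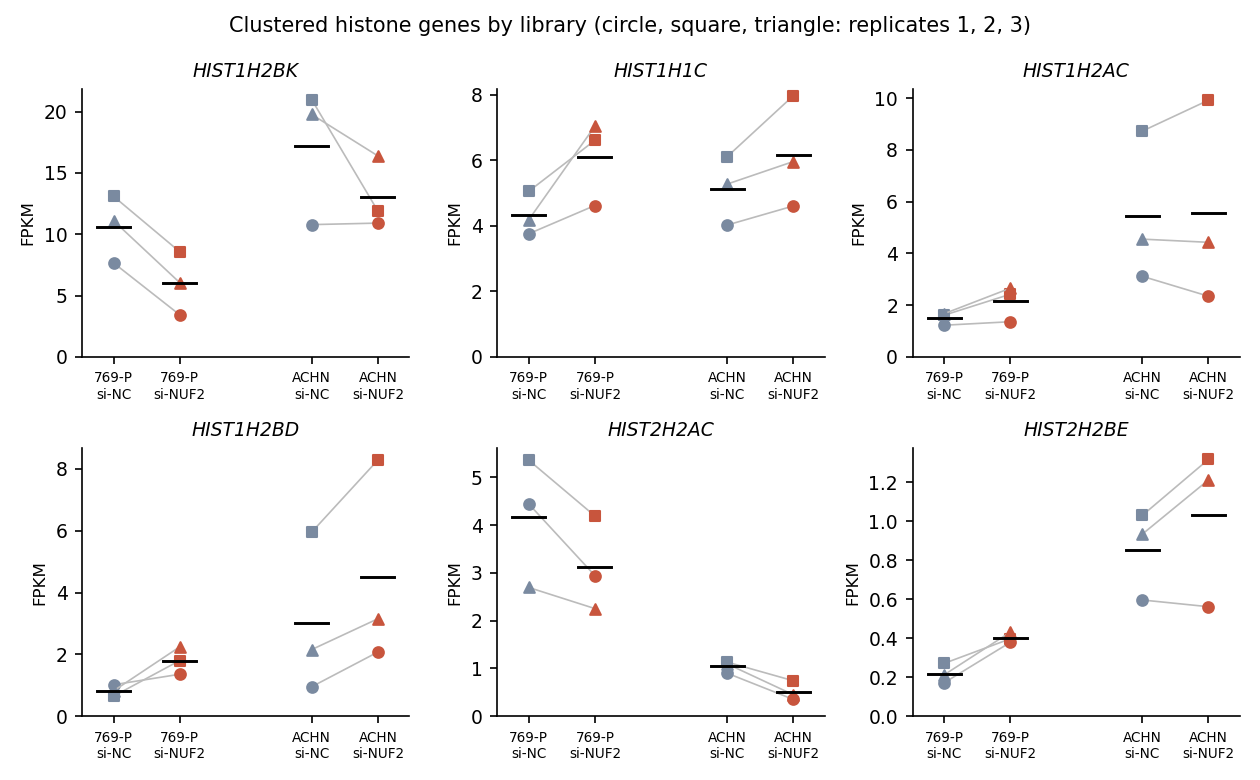
FPKM of 6 clustered histone genes in each library, with grey lines joining si-NC and si-NUF2 libraries of the same number and black bars at the group means. Every line runs downward for HIST1H2BK and HIST2H2AC in 769-P cells and upward for HIST1H1C, HIST1H2BD and HIST2H2BE, and in ACHN cells the replicates of HIST1H2AC and HIST1H2BD lie further apart than their pairs.

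In ACHN cells no member was called without the block, and none of the 15116 genes tested was (0% up and 0% down). At an unadjusted p under 0.05 there were 1 of 15 members and 1238 genes, and limma-voom on reads recovered from the FPKM also called 0 of 24 members. With the block 1 member was called up and 1 down, against 7.14% and 5.05% of all genes. The median log2 fold change was 0.19 over the 15 members, against 0.01 over all genes, and 10 of the 15 were above 0. In 3 of 3 pairs 7 members were higher (29.2% of all genes) and 2 were lower (25.6%).

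HIST1H2BD was again higher with si-NUF2 in every pair. Its libraries held 2.07, 8.29 and 3.15 FPKM (si-NUF2) and 0.951, 5.96 and 2.15 FPKM (si-NC), from 26 to 250 reads. Replicates of 1 group differed by more than the siRNAs, and replicate 2 was the highest in both groups. The log2 fold change was 0.70 (standard error 0.755, adjusted p = 0.944 from limma), and with the block the standard error was 0.134 and the adjusted p 0.0382. Leaving out any 1 library from the fit with the block ended this call (adjusted p = 0.0534 to 0.129 from limma).

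HIST2H2AC was again lower, at 0.351, 0.740 and 0.449 FPKM with si-NUF2 and at 0.899, 1.13 and 1.09 FPKM with si-NC. The groups did not overlap, but these values rest on 5, 10 and 6 reads against 11, 17 and 15. HIST2H2AC reached the filter level in 3 si-NC libraries and 1 si-NUF2 library, so its difference may follow in part from the filter. The log2 fold change was −0.92 (standard error 0.288, adjusted p = 0.453 from limma, 0.0473 with the block), and the call was lost on recovered reads (adjusted p = 0.103 from limma-voom with the block) and without any 1 library (0.0703 to 0.181). HIST2H2BE, its divergent partner, was at 0.561, 1.32 and 1.21 against 0.595, 1.029 and 0.933 FPKM, with a log2 fold change of 0.21 (standard error 0.365, adjusted p = 0.985 from limma).

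The 3 members of highest level showed no call in ACHN cells. HIST1H2BK was at 10.9, 11.9 and 16.4 (si-NUF2) and 10.8, 21.0 and 19.8 FPKM (si-NC), lower in 2 of 3 pairs (log2 fold change −0.34, adjusted p = 0.896 from limma, 0.223 with the block). HIST1H1C was at 4.60, 7.96 and 5.96 against 4.02, 6.10 and 5.27 FPKM, higher in 3 of 3 pairs (0.26, adjusted p = 0.904 from limma, 0.0594 with the block). HIST1H2AC was at 2.34, 9.92 and 4.43 against 3.11, 8.73 and 4.55 FPKM (−0.07, adjusted p = 0.997 from limma), and its replicates of 1 group differed by more than the siRNAs.

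The other 9 members tested in ACHN cells had log2 fold changes from −0.28 (HIST1H4I) to 0.37 (HIST1H2BC and HIST1H2BJ), none called in either fit. HIST3H2A was at 5.16, 7.19 and 5.64 against 4.66, 6.03 and 5.18 FPKM, higher in 3 of 3 pairs (0.19, adjusted p = 0.892 from limma, 0.0897 with the block). HIST1H2BC was at 0.754, 1.77 and 1.22 against 0.573, 1.12 and 1.12 FPKM and HIST1H2BJ at 0.777, 1.16 and 0.922 against 0.604, 0.956 and 0.628 FPKM, and both were higher in 3 of 3 pairs. HIST1H4I, lower in 3 of 3 pairs, was at 1.35, 2.01 and 1.96 against 1.55, 3.21 and 2.04 FPKM. HIST2H2BC, HIST1H2AE, HIST4H4, HIST1H2AG and HIST1H2BH had log2 fold changes of 0.08, −0.03, 0.12, 0.32 and 0.24.

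**Figure D3:**
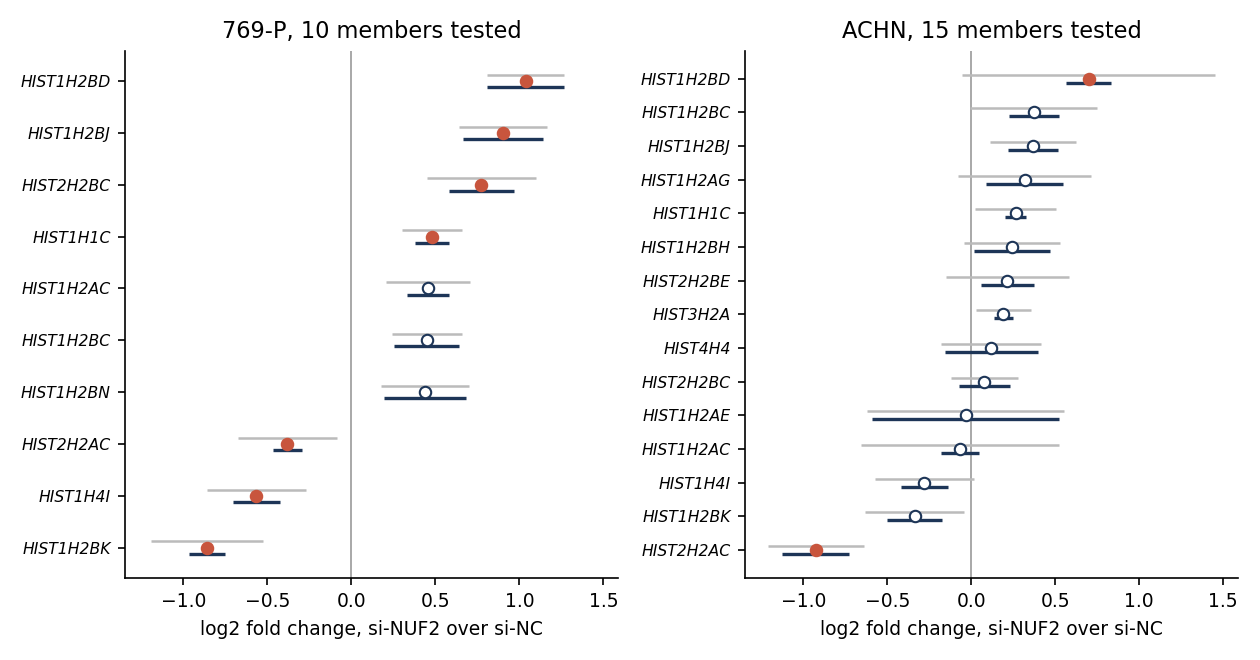
Log2 fold changes (si-NUF2 over si-NC) of the members tested in each line, with the standard error without (grey) and with (dark) the replicate block, and filled red points at an adjusted p under 0.05 with the block. Of the members 7 are filled for 769-P and 2 for ACHN cells, and HIST1H2BD and HIST2H2AC are filled in both.

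The response of the members was not shown to differ between the lines. In 1 fit of all 12 libraries, limma's interaction of siRNA and line called 0 of 17 members without the block and 0 with it, against 0% and 1.52% of 16564 genes. No member had an unadjusted p under 0.05 without the block and 4 did with it, HIST2H2BC, HIST2H2AC, HIST1H2AC and HIST1H2BJ, with differences of −0.69, −0.54, −0.52 and −0.53 on the log2 scale (ACHN minus 769-P) and adjusted p-values of 0.178 to 0.242 from limma. The levels of the lines were not compared by a test.

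The HIST3 cluster was read differently in the lines. HIST3H2A, an H2A gene, was at 0 reads in all 6 libraries of 769-P cells, where 3 reads would be 0.103 to 0.117 FPKM, and between 4.66 and 7.19 FPKM in ACHN cells. Its divergent neighbour HIST3H2BB was also at 0 in every library of 769-P cells and at 0.144 to 0.416 FPKM in ACHN cells. HIST3H2BA likewise stayed at 0 in 769-P cells, whereas HIST3H3, the testis H3 gene of the same cluster, was read in every library of 769-P cells (0.0642 to 0.434 FPKM). With si-NC, HIST2H2AC was 0.250 times as high in ACHN as in 769-P cells and its partner HIST2H2BE 3.93 times as high.

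**Figure D4:**
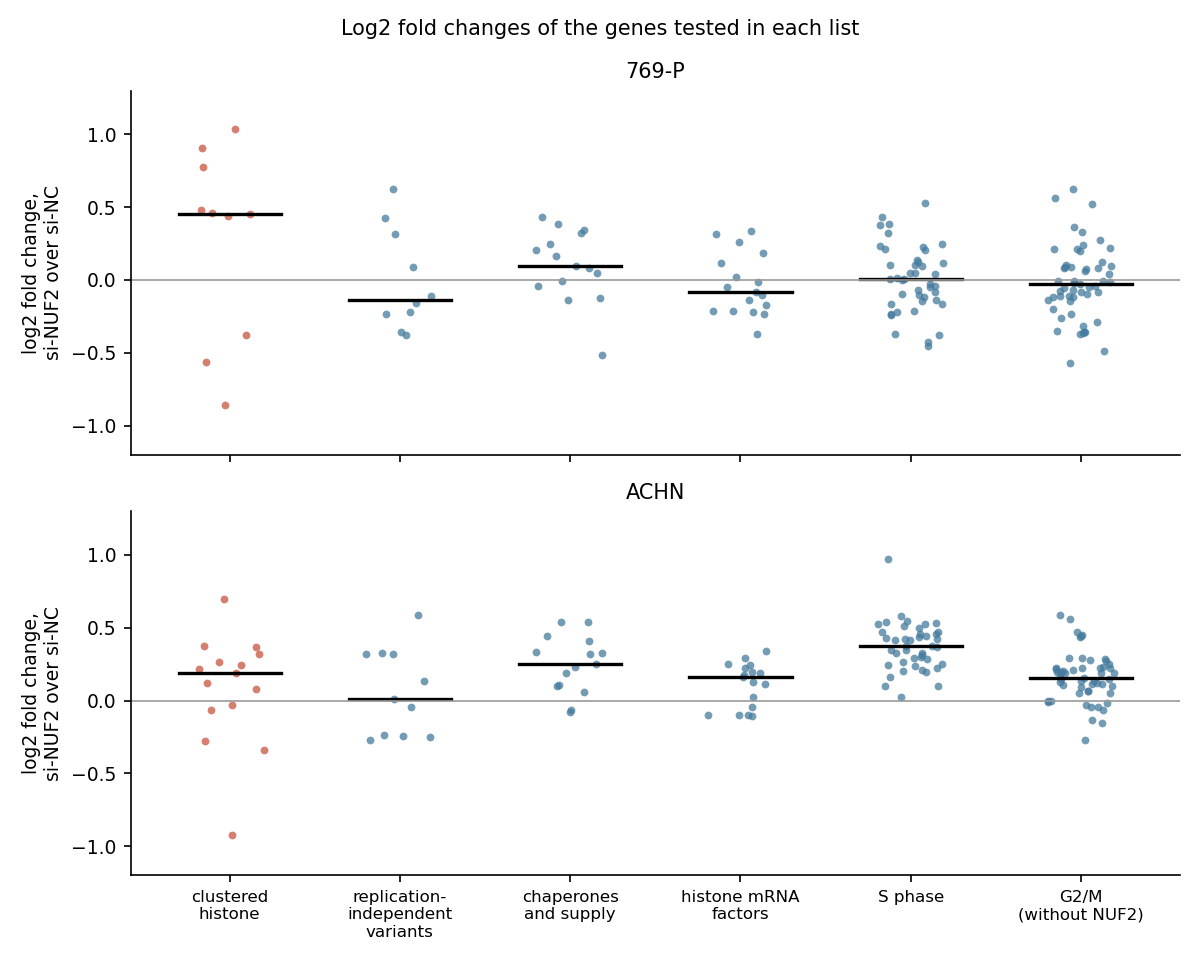
Log2 fold changes (si-NUF2 over si-NC) of the genes tested in 6 lists, 1 point per gene and a bar at the median, for 769-P (top) and ACHN cells (bottom). In ACHN cells all S phase genes lie above 0 with a median of 0.37 while the clustered histone genes lie on both sides, and in 769-P cells the S phase median is at 0.01.

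The S phase genes separated the siRNAs in ACHN cells and the summed histone genes did not, a contrast that was not itself tested. Most but not all of the 43 S phase genes of the Seurat list serve replication and its control. In ACHN cells the 43 summed to 595, 584 and 647 FPKM (si-NUF2) and 405, 508 and 510 FPKM (si-NC), without overlap. After scaling within the line, the log2 ratio of the S phase sums was 0.38, and 0.58, 0.21 and 0.36 by pair, against 0.04 for the histone genes. The pooled SD of the log2 histone total within groups was 0.40, and its ratio was larger without HIST1H2BK, as given above. By same-numbered pair the histone total varied less, with a mean log2 difference of 0.05 and an SD of 0.08 (n = 3). Whether the histone total rose by the S phase size was not tested. All 43 genes had a log2 fold change above 0 (median 0.37). None was called without the block, with 18 at an unadjusted p under 0.05. With it 15 were called, all up, where 7.14% of all genes tested were called up. GINS2, a subunit of the replicative helicase, was at 5.88, 6.98 and 7.24 against 2.53, 4.44 and 3.50 FPKM (log2 fold change 0.97, adjusted p = 0.303 from limma, 0.0182 with the block). RRM1, a subunit of ribonucleotide reductase, had a log2 fold change of 0.50 (adjusted p = 0.268 from limma, 0.0229 with the block).

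In 769-P cells 2 of the 43 S phase genes were called, both up (NASP and MRPL36), and with the block 10 up and 7 down, with a median of 0.01. Of all genes tested there, 5.26% were called up and 4.71% down without the block, and 13.6% and 13.9% with it. The 54 G2/M genes, *NUF2* among them, had in 769-P cells 3 called up and 8 down, or 10 up and 13 down with the block (median −0.04). Both counts of genes called down include *NUF2*, the target of the siRNAs. In ACHN cells 0 were called without the block (2 at an unadjusted p under 0.05, *NUF2* among them). With it 13 were called up (7.14% of all genes tested) and 1 down (5.05%), with a median of 0.15. The 1 called down is *NUF2* itself.

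Genes that carry and deposit histones were called up with the block in ACHN cells. Of 15 chaperones and supply factors, 0 were called there without the block (5 at an unadjusted p under 0.05) and 7 with it, all up. In 769-P cells 2 were called up and 1 down without the block, and 5 up and 1 down with it. Of all genes tested, the fit with the block called 7.14% up and 5.05% down in ACHN and 13.6% and 13.9% in 769-P cells. CHAF1A, the large subunit of the replication-coupled assembly factor CAF-1, held in ACHN cells 15.7, 10.9 and 12.04 FPKM (si-NUF2) and 9.53, 9.06 and 7.89 FPKM (si-NC) (log2 fold change 0.54, adjusted p = 0.446 from limma, 0.0353 with the block). NASP, which guards the soluble pool of H3 and H4 and is also one of the S phase genes, rose in 769-P cells by 0.43 (adjusted p = 0.0228 from limma). ASF1B, another H3-H4 chaperone, fell there by 0.52 (adjusted p = 0.0141 from limma).

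Of 17 factors that transcribe histone genes or process their 3′ ends, 0 were called in either line without the block (4 at an unadjusted p under 0.05 for 769-P and 1 for ACHN cells). With the block 2 were called up and 4 down in 769-P and 1 up in ACHN cells. The shares of all genes tested were then 13.6% up and 13.9% down in 769-P, and 7.14% up and 5.05% down in ACHN cells. SLBP, the stem-loop binding protein, was at 53.3, 56.1 and 47.7 FPKM with knockdown and at 64.0, 60.8 and 58.7 FPKM without it in 769-P cells, with a log2 fold change of −0.22 (adjusted p = 0.139 from limma, 0.0345 with the block). In ACHN cells SLBP had a log2 fold change of 0.16 (adjusted p = 0.843 from limma, 0.174 with the block). CPSF3, the nuclease that cuts histone and other pre-mRNAs, had log2 fold changes of 0.34 and 0.29 in the lines, with adjusted p-values of 0.0695 and 0.569 from limma, and 0.0136 and 0.0518 with the block.

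Histone variants listed as replication-independent, whose genes lie outside the clusters and mostly give polyadenylated mRNA, were far higher than the members. They were at 509 to 791 FPKM in sum per library. In 769-P cells 1 of 10 was called up and 1 down, and with the block 3 up and 4 down. In ACHN cells 0 of 11 were called (1 at an unadjusted p under 0.05), and with the block 3 up and 1 down. The shares of all genes tested in 769-P cells were 5.26% up and 4.71% down, and 13.6% and 13.9% with the block. For ACHN cells they were 0% and 0%, and 7.14% and 5.05% with the block. CENPA, the H3 variant of centromeres, was at 13.5, 13.0 and 11.0 FPKM with knockdown and at 8.63, 8.84 and 6.93 FPKM without it in 769-P cells (log2 fold change 0.62, adjusted p = 0.0283 from limma). In ACHN cells CENPA had a log2 fold change of 0.59 (adjusted p = 0.756 from limma, 0.0122 with the block). H2AFV, a variant of the H2A.Z type, fell by 0.38 in 769-P cells (adjusted p = 0.0210 from limma), and in ACHN cells had a log2 fold change of −0.27 (adjusted p = 0.721 from limma, 0.0315 with the block).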

How the data were processed

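RNA-seq of 12 libraries (769-P and ACHN cells, si-NUF2 or si-NC, 48 h, 3 replicates each) was used. The authors deposited FPKM per gene. The submitters' processing notes name HISAT2 2.0.5, featureCounts 1.5.0-p3 and hg38, and the multi-mapping and strand settings are not given in the sources used here. Low FPKM multiplied by GENCODE 29 exon length gave whole reads (within 0.05 read) for 97.3% to 97.7% of low values, from which the depth and the recovered reads came. 

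Within a line, FPKM were scaled by trimmed means of the log ratios (30% of log ratios and 5% of levels trimmed). Genes at 0.5 FPKM or more in at least 3 of 6 libraries were fitted as log2(FPKM + 0.1), which understates changes of low genes, with limma 3.58.1 in R 4.3.3 (eBayes with trend, Benjamini-Hochberg adjustment, threshold 0.05). The main design has no block. Same-numbered libraries deviated together (correlations for pairs 1 to 3 of 0.359, 0.271 and 0.190 with 769-P, and of 0.648, 0.735 and 0.460 with ACHN), so the numbers were taken to pair the libraries and the fit with the replicate block is given beside it. Nothing says what a replicate is, so p-values measure the spread between these libraries, which may be technical. An exact permutation test of 3 against 3 cannot go below p = 0.1. The fits were tested on simulated data. S phase and G2/M genes come from Seurat 5.3.0. CHAF1B and NASP stand in 2 lists, as do SLBP, CCNE2, CASP8AP2 and CENPA. Python 3.11.15, NumPy 2.4.6, pandas 2.3.3 and matplotlib 3.10.9 made the tables and figures.

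Members and lists were chosen with earlier results of these data known. Named were *NUF2*, the 12 members of highest mean FPKM, members called in either fit, the 3 highest and 3 lowest log2 fold changes, and up to 4 members of each other list with the lowest p in each line. Alternatives were 3 scalings, 2 pseudocounts, 2 filters, the block, 1 fit of all 12 libraries, each library left out, and, added after the data had been seen, limma-voom on recovered reads, blocked fits with a library left out or over all 12 libraries, and a sum without HIST1H2BK.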

Additional observations from a re-analysis of the deposited data

Results flagged for a closer look

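HIST1H2BH and HIST2H3D were lower with si-NUF2 in 3 of 3 pairs of 769-P cells and higher in 3 of 3 pairs of ACHN cells. They were found by a search of all members for opposite signs in every pair. Of all genes tested, 32.1% were lower in 3 of 3 pairs in 769-P and 29.2% higher in ACHN cells. The share with both was not computed, so the pattern was not shown to be particular to these genes. Both were below the filter in the first line, HIST2H3D in the second too, and the difference between the lines was not tested for either. For HIST1H2BH, an H2B gene, the pair differences were −1.05, −0.13 and −0.51 on the log2 scale in the first line and 0.28, 0.31 and 0.14 in the second, a gap between the means of 0.80 that rests on 9 to 46 reads per library. For HIST2H3D, an H3 gene, they were −0.26, −0.82 and −0.47 against 0.61, 1.70 and 0.05, a gap of 1.301 that rests on 1 to 9 reads.

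Among the 43 S phase genes set beside them, E2F8 (a repressor of E2F targets) and PRIM1 (a primase subunit) were called by limma's interaction with the replicate block. They were found by a search for calls in that fit, which called 1.52% of all 16564 genes tested. Fits of this interaction with 1 library left out are not given here. The log2 fold change of E2F8 was 0.80 higher in ACHN than in the other line (standard error 0.103, adjusted p = 0.0368 from limma), and that of PRIM1 0.43 higher (standard error 0.0705, adjusted p = 0.0489 from limma). Without the block both had an adjusted p of 0.9997 from limma.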

How the results depend on the processing

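The replicate block made the greatest difference among the settings tried. It also raised the shares of all genes called, as given above, and those shares are not given here for the other settings. Clustered histone genes called in 769-P cells numbered 1 without the block and 7 with it, 0 or (with the block) 9 in 1 fit of all 12 libraries, 8 by limma-voom with the block, and 0 of 59 with no filter or 0 of 4 at 1 FPKM in every library. Without 1 library they numbered 0 to 1, and with the block 1 to 4 (3 without si-NC replicate 3 or si-NUF2 replicate 2 or 3). For ACHN the main count of 0 became 2 with the block, and 1 with the block in all 12 libraries or by limma-voom, and stayed at 0 without any 1 library. S phase genes called in 769-P cells numbered 2, with 17 under the block, 0 in all 12 libraries (13 under the block), 18 by limma-voom under the block, 0 to 2 without 1 library and 2 to 9 under the block (6, 7 or 9 in the fits that moved most). For ACHN they numbered 0, with 15 under the block, 2 in all 12 libraries (30 under the block), 34 by limma-voom under the block, 0 without 1 library and 0 to 13 under the block (3 without replicate 1 of either siRNA).

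The log2 ratio of the summed histone level in 769-P cells, −0.11, became 0.27 as a mean of log2 levels and 0.13 without HIST1H2BK. The value of 0.27 covers the members tested and follows in part from the filter. The ratio of the sums was −0.22 to 0.03 without 1 library (ACHN −0.16 to 0.26). The sign turned for 4 uncalled genes of ACHN. Without 1 library the log2 fold change of HIST1H2AC was −0.59 to 0.41 (0.085 under the block without replicate 1), that of HIST1H2AE −0.46 to 0.50 (0.71 under the block), that of HIST2H2BC −0.093 to 0.19 (−0.075 under the block) and that of HIST4H4 −0.080 to 0.29 (−0.086 under the block). HIST1H2AC was at 0.0089 by limma-voom with the block, and HIST1H2AE at 0.0054 there and at 0.0026 with a pseudocount of 1. The causes were not tested. The members rest on few reads and on 3 replicates per group, so a member that was not called was not shown to be unchanged.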

Other observations

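Several members are near-identical copies, and how reads that map to more than 1 place were counted is not given in the sources used here. The pairs HIST2H2AA3 and HIST2H2AA4, HIST2H4A and HIST2H4B, and HIST2H3A and HIST2H3C had means of 0.0290 and 0.0355, 0.00906 and 0.0326, and 0.00581 and 0.00160 FPKM over the 12 libraries, so their levels are uncertain. HIST1H2APS2, a pseudogene and the highest member that is not protein-coding among those annotated, was at 0.861, 0.846 and 0.264 FPKM with knockdown and at 0.184, 0.337 and 0.167 FPKM without it in 769-P cells. It rests on 0 to 10 reads over the 12 libraries and overlaps an exon of SLC17A3 on the same strand. The 6 H1 genes other than HIST1H1C had means of at most 0.251 FPKM (HIST1H1E).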
